A study of Homo sapiens with 6 samples.

Results

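The centrosome and centriole genes were examined in RNA-seq libraries of mitotic human fibroblasts with and without an activated oncogene. They were taken from the expression table by symbol: every gene named CEP followed by a number and at most 1 letter, except CEP55, together with PCNT, PLK4, STIL, SASS6, CETN2, CETN3, NEDD1, CDK5RAP2, PCM1, ODF2, AKAP9, CNTROB and CCP110. This gave 44 of the 63009 rows read. Described here are the 41 whose level averaged 1 FPKM or more across all 6 libraries, as 13993 genes in the whole table did. FPKM is the number of fragments mapped to a gene, scaled for its length and for the fragments mapped in the library. The remaining 3 rows, which are second entries for CEP95, CEP41 and CETN2 under other Ensembl identifiers, were listed at 0 in every library.

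The cells were ERRAS cells, early-passage IMR90 fibroblasts (a primary human lung line) carrying an H-RasV12 fusion that tamoxifen switches on. All 6 cultures carried the fusion and were arrested with 1 µM DME (dimethylenastron, an inhibitor of the spindle motor Eg5), and detached mitotic cells were collected. The 3 control libraries came from cells left uninduced. The 3 Ras-induced libraries came from cells induced for 4 days, with 100 nM tamoxifen by the sample labels and 100 ng/ml 4OHT by the methods. A drug that blocks centrosome separation was thus present in both groups. The collected cells had a mitotic index over 90% by the labels, so a minority may not have been in mitosis, and every library derives from a single line carrying the fusion. The study describes the experiment as repeated independently in triplicate, while the labels number the libraries without tying them to a repeat. The p-values measure the spread between these libraries.

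A centrosome holds a pair of centrioles, short cylinders of microtubules, inside a protein matrix called the pericentriolar material, from which spindle microtubules grow. Centrioles are copied once in each cell cycle, when PLK4 kinase and its partners STIL and SASS6 start a new cylinder beside each old one. The older centriole carries appendages that allow it to seed a primary cilium, and a fibrous linker holds the centrosomes of a cell together until mitosis. Satellites are granules around the centrosome that are built on PCM1.

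The 3 control libraries had estimated sequencing depths of 1.00, 0.954 and 1.17 relative to the first of them, and the Ras-induced libraries had 1.13, 0.850 and 0.973. No absolute depth was used. All 6 fibroblast markers were expressed, with summed levels of 4640 to 5240 FPKM in control and 3010 to 4240 FPKM in Ras-induced libraries, and 2 of the 6, COL1A2 (-1.30) and THY1 (-1.19), fell by the test described below, beside 5.67% of all genes. COL1A1 (log2 difference -1.43, limma adjusted p = 0.0501) and COL3A1 (-1.25, 0.0553) lay just outside the threshold. COL1A1 fell after quantile normalization (0.0368) and both fell after upper-quartile scaling (0.0437 and 0.0477), which makes 3 and 4 of the 6 under the scalings. Not altered were PDGFRB (-0.04, 0.930) and VIM (0.06, 0.772), the most abundant of the 6. COL1A2 was not altered without the first Ras-induced (limma adjusted p = 0.0518) or the second control library (0.0576). The endothelial marker PECAM1 and the muscle factor MYOD1 were listed at 0. A mean of 1 FPKM was reached by 2 of 4 epithelial, 1 of 3 leukocyte, 0 of 3 endothelial and 0 of 3 muscle markers. The summed endothelial list reached at most 0.0988 FPKM, the muscle list 1.74 FPKM, the epithelial list 16.6 FPKM and the leukocyte list 35.8 FPKM. KRT8 (mean 11.9 FPKM) and CD68 (30.5 FPKM) made up most of the last 2 sums, while CDH1 (0.129 FPKM), EPCAM (0.765 FPKM) and CD14 (0.117 FPKM) stayed under 1 FPKM. In bulk RNA, fewer cells of a type and less RNA per cell cannot be told apart.

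Of the 41 centrosome genes, 5 were altered in Ras-induced mitotic cells. CEP170 and CETN2 rose, whereas STIL, CEP192 and CNTROB fell. A gene is called altered where limma on log2(FPKM + 1) gave an adjusted p (Benjamini-Hochberg, over all 13993 genes) of 0.05 or less, and every log2 difference below is Ras-induced minus control on that scale. This was 12.2% of the centrosome genes, beside 16.7% of all tested genes. The 2 genes that rose were 4.88% of the list, beside 11.0% of all genes, and the 3 that fell were 7.32%, beside 5.67%. The median log2 difference of the list was -0.06, beside 0.10 for all tested genes, and 31 of the 41 genes lay below that all-gene median.

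These counts depended on how the libraries were scaled. Quantile normalization moved the median of all genes by -0.09 and upper-quartile scaling by -0.10, and the median of the centrosome genes was -0.17 under both. After quantile normalization 2 centrosome genes rose and 7 fell (4.88% and 17.1% of the list), beside 7.46% and 7.93% of all genes. CEP152, CEP63, CEP70 and CEP97 joined the 3 that fell with the deposited values. After upper-quartile scaling 2 rose and 8 fell (4.88% and 19.5%), beside 6.58% and 7.87% of all genes, with CEP85 the addition. The 5 genes altered with the deposited values were altered in the same direction under both scalings.

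**Figure D1:**
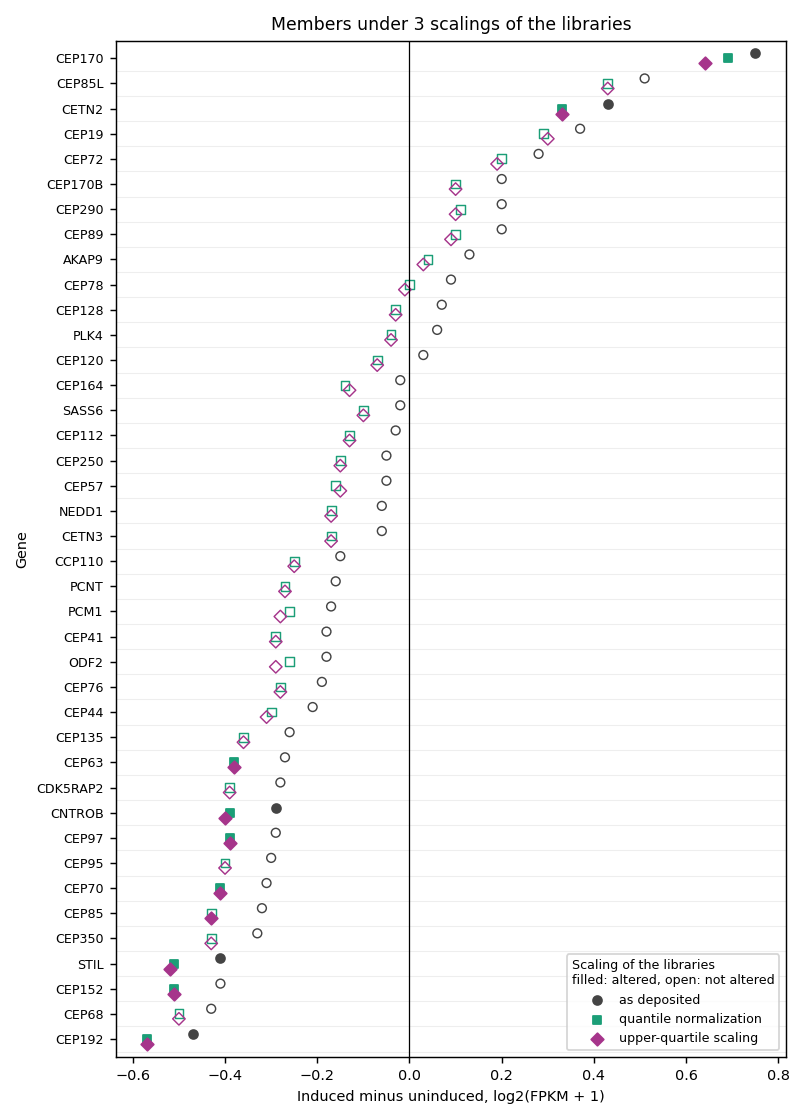
Log2 difference (Ras-induced minus control, log2(FPKM + 1), horizontal axis) of 40 of the 41 genes with the values as deposited, after quantile normalization and after upper-quartile scaling; filled symbols are altered. Both scalings moved the genes to the left, and the number that fell went from 3 to 7 and 8.

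The groups did not overlap for 23 of the genes. All 3 Ras-induced libraries lay above the control libraries for 9 genes (22.0%, beside 27.1% of all tested genes) and below them for 14 (34.1%, beside 12.8%). The 14 were STIL, CEP192, CNTROB, CEP152, CEP63, CEP70, CEP85, CEP97, CEP68, CEP95, CEP135, CDK5RAP2, ODF2 and PCM1. An unadjusted p under 0.05 was reached by 18 genes (43.9%), 12 with lower and 6 with higher values in Ras-induced cells, beside 33.6% of all genes. The third control library had the highest value of its group in 21 of the 41 genes, against 9 and 11 for the other control libraries. The part of that library in the lower values was not tested beyond leaving it out, which is given for each altered gene.

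Differences were small and replicates close. The median within-group SD of the centrosome genes was 0.12 on the log2 scale, beside 0.17 for all genes, and the 95% interval of a gene's difference had a median half-width of 0.26 (range 0.18 to 0.40). Mean levels ran from 2.24 to 135 FPKM with a median of 16.6, beside 13.0 for all genes, and 25 of the 41 genes lay between 10 and 40 FPKM. CEP170, ODF2, PCM1 and CNTROB were above 50 FPKM, and CEP19, CEP68, CEP85L, SASS6 and CEP72 were below 5. Across the 41 genes, which share the same libraries, the difference had a rank correlation of 0.05 with mean level and -0.03 with transcript length. Within groups, the deviations of these genes from the group mean had rank correlations with transcript length of -0.52 in the second Ras-induced library, 0.34 in the third control library and 0.31 in the third Ras-induced library, and of -0.25 to 0.14 in the others. Over all tested genes the same correlations were -0.27, 0.14 and 0.06 in these libraries, and -0.15 to 0.27 in the others. The part of transcript length in single differences was not tested.

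**Figure D2:**
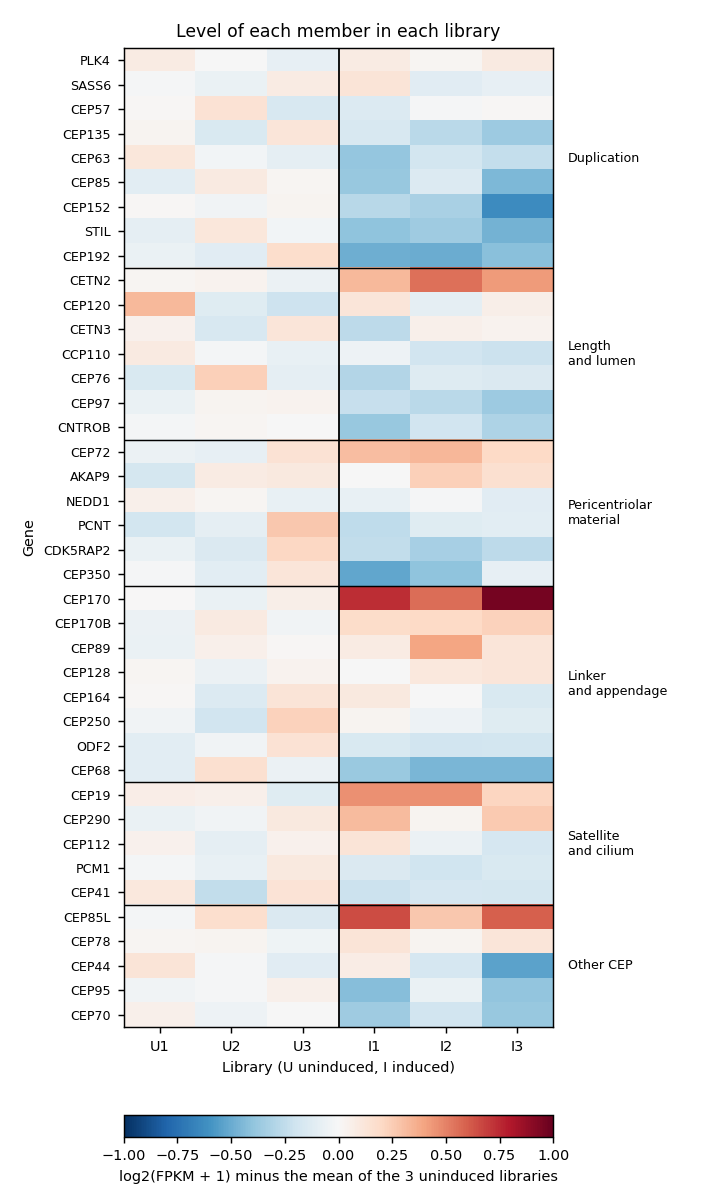
Level of 40 of the 41 genes (rows, grouped by role) in each of the 6 libraries (columns), as log2(FPKM + 1) minus the mean of the 3 control libraries; red is above and blue is below that mean. CEP170 is the deepest red row, and the lower rows of the duplication block (STIL, CEP192, CEP152) are blue in all 3 Ras-induced libraries.

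The promoter sequences of the 5 altered genes are shown next, with motifs known from cell cycle promoters marked. The word CCAAT was found in 4 of the 5 genes (STIL, CEP192, CETN2 and CNTROB), beside 32.0% of all 35116 promoters. The share of all promoters holding any of the words searched was not counted, so no link to the cell cycle is drawn from these matches. Sequences are from the RefSeq promoter table (build GRCh38.p14), which listed 35 of the 41 genes with 52 entries; CETN3, CEP170B, CEP250, CEP78 and PCM1 were among those not listed. The positions given are exact matches to GRCh37, the build of the deposited data. The letters searched on both strands in the 250 bases before the start were CCAAT, the E2F words TTTCCCGC, TTTGGCGC, TTTCGCGC and TTTGCCGC, the cell cycle homology words TTTGAA and TTCGAA, the ETS word CCGGAAGT, the NRF1 motif and the AP-1 word TGANTCA. Matches are in capitals, and stretches that the annotation places in an untranslated region are left out apart from single sites of 30 bases.
STIL, site beside the start, chr1:47779820-47779849, minus strand: tcagtttcgcgagcttgtgTTTGCCGCctc
CNTROB, ETS site, chr17:7835269-7835298, plus strand: cgagtgcccgtcaagagttACTTCCGGttt
CNTROB, CCAAT site, chr17:7835375-7835404, plus strand: agactccgcctccctccctcagCCAATctg
CEP192, chr18:12991111-12991360, plus strand: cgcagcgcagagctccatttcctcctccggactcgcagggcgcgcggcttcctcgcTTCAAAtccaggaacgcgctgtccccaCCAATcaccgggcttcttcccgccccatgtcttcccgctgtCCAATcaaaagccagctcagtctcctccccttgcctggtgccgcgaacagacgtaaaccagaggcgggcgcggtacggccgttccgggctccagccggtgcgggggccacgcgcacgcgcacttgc
CETN2, chrX:151999302-151999510, minus strand: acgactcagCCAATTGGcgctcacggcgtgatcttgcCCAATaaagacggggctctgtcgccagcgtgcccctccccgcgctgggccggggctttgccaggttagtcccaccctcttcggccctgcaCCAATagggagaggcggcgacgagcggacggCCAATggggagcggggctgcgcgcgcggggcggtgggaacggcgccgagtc
CEP170, chr1:243418651-243418833, minus strand: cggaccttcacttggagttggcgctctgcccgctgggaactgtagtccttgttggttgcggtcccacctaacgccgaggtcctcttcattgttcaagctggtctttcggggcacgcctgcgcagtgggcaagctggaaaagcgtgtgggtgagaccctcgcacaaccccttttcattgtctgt

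In the full windows, STIL had 3 CCAAT matches and an E2F match ending 4 bases before the start. CEP192 had 2 CCAAT matches and a cell cycle homology match, CETN2 had 6 CCAAT matches, of which 2 overlap in CCAATTGG, and CNTROB had an ETS match and, in the second of its 2 entries, a CCAAT match. CEP170 had none of the words in its window. Among the 52 entries of the centrosome genes, CCAAT occurred in 40.4%, beside 32.0% of all 35116 promoters in the table. An E2F word occurred in 11.5%, beside 2.79%, and the genes were STIL, CEP63, CEP57, CEP68, CEP112 and ODF2, of which only STIL was altered with the deposited values. The ETS word occurred in 15.4% beside 3.42%, the cell cycle homology words in 15.4% beside 14.3%, the NRF1 motif in 1.92% (PLK4) beside 1.03%, and the AP-1 word in 3.85% (CEP85 and CEP97) beside 6.57%. Median GC content was 62.8% for the entries of the centrosome genes and 58.0% for all promoters. The promoters of the whole table were not limited to genes of 1 FPKM or more, as the centrosome genes were. These shares describe letters in a window and not bound sites.

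Among the 9 genes of centriole duplication, STIL and CEP192 fell, 7 were not altered and none rose, beside 5.67% of all genes that fell and 11.0% that rose. The median log2 difference was -0.27. After quantile normalization 4 of the 9 fell, and after upper-quartile scaling 5, beside 7.93% and 7.87% of all genes, with a median of -0.38 under both. STIL (ENSG00000123473, chr1:47715811-47780564, minus strand, GRCh37) binds and activates PLK4 at the site of the new centriole. It was expressed at 23.5, 27.2 and 24.6 FPKM in the control libraries and 18.7, 19.4 and 17.8 FPKM after Ras induction. Every Ras-induced library was below every control library. The mean fell from 25.1 ± 1.89 to 18.6 ± 0.790 FPKM (SD, n = 3 each), a log2 difference of -0.41 (SE 0.09, 95% interval -0.62 to -0.20, limma adjusted p = 0.0248). STIL stayed altered without the third control library (adjusted p = 0.0491) and was not altered without any other single library (adjusted p 0.0518 to 0.0909).

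CEP192 (ENSG00000101639, chr18:12991361-13125051, plus strand) is a scaffold that recruits PLK4 and the mitotic kinases to centrosomes. Its levels were 17.5, 16.9 and 20.9 FPKM in control libraries and 12.8, 12.8 and 13.5 FPKM in Ras-induced libraries. The Ras-induced values lay within 1 FPKM of each other and below every control value. The log2 difference was -0.47 (SE 0.10, 95% interval -0.71 to -0.22, limma adjusted p = 0.0271). Without the third control library, the highest of its group, the difference was -0.38 with an adjusted p of 0.0433. Leaving out any other library gave an adjusted p of 0.0641 to 0.0866, and fitting without a filter on low values also ended the call.

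CEP152 is the partner of CEP192 in recruiting PLK4. It measured 11.3, 10.9 and 11.4 FPKM in control libraries and 9.08, 8.78 and 6.91 FPKM in Ras-induced libraries. The groups did not overlap, but the log2 difference of -0.41 (SE 0.12) was not altered (limma adjusted p = 0.0588). It was altered after quantile normalization (-0.51, adjusted p = 0.0329) and upper-quartile scaling (-0.51, adjusted p = 0.0342). CEP63, which forms a complex with CEP152, showed the same pattern of calls: -0.27 with an adjusted p of 0.0998 as deposited and -0.38 with an adjusted p of 0.0447 after quantile normalization.

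PLK4 itself, the kinase that starts duplication, was at 46.1, 43.3 and 41.0 FPKM in control libraries and 46.1, 43.99 and 46.3 FPKM in Ras-induced libraries. The groups overlapped, and the log2 difference of 0.06 (95% interval -0.12 to 0.25, limma adjusted p = 0.587) became -0.04 under both scalings. SASS6, the protein of the cartwheel on which a new centriole is assembled, was low, at 3.06, 2.91 and 3.33 FPKM in control and 3.49, 2.78 and 2.87 FPKM in Ras-induced libraries. Its groups overlapped as well (-0.02, 95% interval -0.34 to 0.30, adjusted p = 0.931). The remaining duplication genes were CEP85 (-0.32, adjusted p = 0.0943), CEP135 (-0.26, adjusted p = 0.144) and CEP57 (-0.05, adjusted p = 0.773). CEP57 shares 20.9% of its exon bases with MTMR2 on the other strand, and the library kit does not mark strand.

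**Figure D3:**
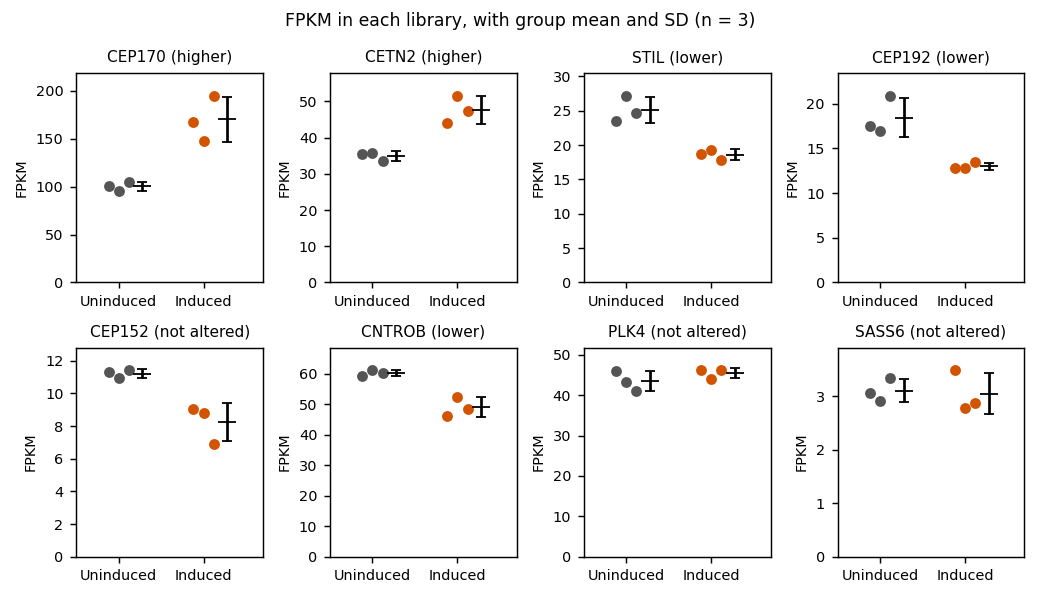
FPKM of 8 genes in each library (points), with the group mean and SD (n = 3) beside them, in control (uninduced) and Ras-induced (induced) cells; every vertical axis starts at 0. The groups are separate for CEP170, CETN2, STIL, CEP192, CEP152 and CNTROB and overlap for PLK4 and SASS6.

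Of the 8 genes that set the length of centrioles or sit in their lumen or cap, CETN2 rose, CNTROB fell and 6 were not altered, beside 11.0% of all genes that rose and 5.67% that fell. The median log2 difference was -0.11, and -0.21 under both scalings. CETN2 (ENSG00000147400, chrX:151995538-151999301, minus strand) encodes centrin 2, a calcium-binding protein of the centriole lumen that also takes part in nucleotide excision repair. It measured 35.4, 35.9 and 33.5 FPKM in control libraries and 44.1, 51.6 and 47.2 FPKM in Ras-induced libraries, with no overlap. The mean went from 34.9 ± 1.26 to 47.6 ± 3.78 FPKM (SD, n = 3 each), a log2 difference of 0.43 (SE 0.08, 95% interval 0.23 to 0.64, limma adjusted p = 0.0192). It was altered without the third control, the first Ras-induced or the second Ras-induced library (adjusted p 0.0374 to 0.0448) and not without the first or second control or the third Ras-induced library (0.0604 to 0.0682). CETN3, its relative, was at 31.1, 26.9 and 32.9 FPKM in control and 25.0, 31.3 and 30.9 FPKM in Ras-induced libraries. Those groups overlapped (-0.06, adjusted p = 0.767).

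CNTROB (ENSG00000170037, chr17:7835419-7853238, plus strand) encodes centrobin, a protein of daughter centrioles needed for their elongation. Control libraries held 59.2, 61.2 and 60.2 FPKM and Ras-induced libraries 46.2, 52.5 and 48.5 FPKM. The groups were separate, and the log2 difference was -0.29 (SE 0.08, 95% interval -0.47 to -0.11, limma adjusted p = 0.0455). This call was the least stable of the 5. It held without the second Ras-induced library (adjusted p = 0.0405) and was lost without any other library (0.0664 to 0.121), with a pseudocount of 0.1, without a trend and without a filter. CNTROB shares 23 exon bases (0.4%) with TRAPPC1 on the other strand, which had a mean of 129 FPKM.

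CCP110 and CEP97 form the cap that limits centriole length and blocks cilium growth. CCP110 was at 13.1, 12.1 and 11.6 FPKM in control and 11.9, 10.6 and 10.4 FPKM in Ras-induced libraries, an overlap (-0.15, limma adjusted p = 0.306). CEP97 had separate groups (-0.29, adjusted p = 0.0667) and was altered after quantile normalization (-0.39, adjusted p = 0.0284). CEP76 (-0.19) and CEP120 (0.03, and -0.07 under both scalings) were not altered.

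None of the 6 genes of the pericentriolar material was altered by limma with the deposited values or after either scaling, beside 16.7% of all genes altered as deposited. The median log2 difference was -0.11, and -0.22 under both scalings. At an unadjusted p under 0.05 there was 1 of the 6, CDK5RAP2, beside 33.6% of all genes. Pericentrin, the main scaffold of the matrix, is encoded by PCNT, which was at 24.9, 26.6 and 34.5 FPKM in control and 23.6, 26.0 and 26.3 FPKM in Ras-induced libraries. The highest value was in the third control library, and the groups overlapped (-0.16, 95% interval -0.48 to 0.15, limma adjusted p = 0.426). Without that library the difference was -0.03. CDK5RAP2, which helps to attach and activate microtubule-nucleating complexes, was at 34.0, 32.1 and 41.3 FPKM in control and 29.8, 28.01 and 29.5 FPKM in Ras-induced libraries. Here the groups did not overlap, the third control library was again highest, and the adjusted p was 0.122 (-0.28, 95% interval -0.54 to -0.02). Without the third control library the difference was -0.18.

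NEDD1, the adaptor that brings gamma-tubulin ring complexes to centrosomes, gave 27.4, 26.8 and 25.0 FPKM in control and 25.0, 26.1 and 24.3 FPKM in Ras-induced libraries. The groups overlapped (-0.06, limma adjusted p = 0.592). CEP350, a large centriole protein that also binds microtubules, gave 9.25, 8.61 and 10.3 FPKM against 6.21, 6.83 and 8.80 FPKM. The third Ras-induced library lay inside the control range (-0.33, adjusted p = 0.152). CEP72 (0.28, adjusted p = 0.157) and the scaffold AKAP9 (0.13, adjusted p = 0.485) were not altered.

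**Figure D4:**
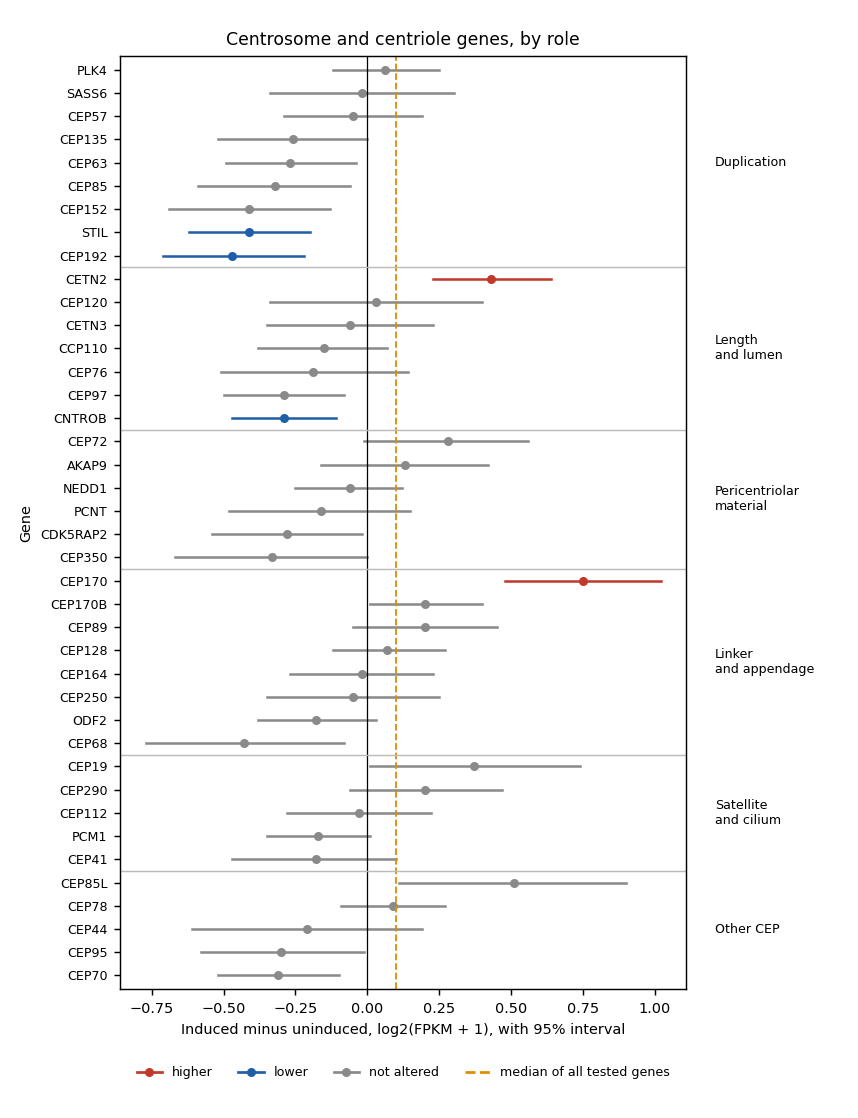
Log2 difference of 40 of the 41 genes (point) with its 95% interval (line), grouped by role; red genes rose, blue genes fell and grey genes were not altered, and the dashed line is the median of all tested genes at 0.10. CEP170 and CETN2 lie to the right, and STIL, CEP192 and CNTROB lie to the left with intervals that leave out 0.

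Of the 8 genes of the centrosome linker and of centriole appendages, CEP170 rose and 7 were not altered, beside 11.0% of all genes that rose and 5.67% that fell (median log2 difference 0.03, and -0.09 and -0.08 after the scalings). CEP170 (ENSG00000143702, chr1:243287730-243418650, minus strand) is a protein of subdistal appendages, the structures on the older centriole that anchor microtubules. It was the most abundant of the 41 genes, at 100.3, 95.7 and 104.5 FPKM in control libraries and 167.3, 147.7 and 194.8 FPKM in Ras-induced libraries. The groups were far apart, and the Ras-induced libraries also differed more among themselves. The mean rose from 100.1 ± 4.41 to 169.9 ± 23.7 FPKM (SD, n = 3 each), by 69.7%, a log2 difference of 0.75 (SE 0.11, 95% interval 0.48 to 1.02, limma adjusted p = 0.00900). It was altered under every alternative run, including each library left out (adjusted p 0.0155 to 0.0488).

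The value of CEP170 carries an uncertainty, because CEP170P1, a pseudogene with a closely related sequence, can take reads of CEP170 or give reads to it. CEP170P1 was listed at 23.7, 21.9 and 25.7 FPKM in control libraries and 42.8, 36.8 and 51.7 FPKM in Ras-induced libraries. Its ratio to CEP170 was 0.229 to 0.246 in control and 0.249 to 0.265 in Ras-induced libraries. The sum of both entries was 117.6 to 130.2 FPKM in control and 184.5 to 246.5 FPKM in Ras-induced libraries, again without overlap. CEP170B, the paralog, was not altered (0.20, limma adjusted p = 0.127). CEP170 also shares 469 and 150 exon bases with 2 long noncoding RNAs on the other strand that had means of 3.32 and 1.77 FPKM.

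CEP250, the linker protein also called C-Nap1, was at 11.5, 10.1 and 13.9 FPKM in control and 12.01, 11.3 and 10.7 FPKM in Ras-induced libraries. The groups overlapped (-0.05, limma adjusted p = 0.822). CEP68, which joins the linker, was low, at 2.54, 3.24 and 2.65 FPKM in control and 1.94, 1.76 and 1.77 FPKM in Ras-induced libraries. Those groups were separate, with a log2 difference of -0.43 (SE 0.14) that was not altered (adjusted p = 0.0913) and was altered only in the fit without a trend (adjusted p = 0.0434). CEP68 shares 6.4% of its exon bases with RAB1A on the other strand, at a mean of 163 FPKM.

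CEP164, a protein of the distal appendages that dock the centriole at the membrane to form a cilium, gave 28.5, 25.6 and 31.0 FPKM in control and 30.3, 28.1 and 25.4 FPKM in Ras-induced libraries, which overlapped (-0.02, limma adjusted p = 0.913). Another distal appendage gene, CEP89, had separate groups and was not altered (0.20, adjusted p = 0.239). The subdistal appendage genes ODF2 (-0.18, adjusted p = 0.198) and CEP128 (0.07, and -0.03 under both scalings) were not altered. 

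None of the 5 satellite and cilium genes was altered by limma, and 1 of them, CEP19, had an unadjusted p under 0.05, beside 16.7% and 33.6% of all genes. The median log2 difference of the 5 was -0.03, and -0.13 under both scalings. PCM1, the scaffold of satellites, was at 62.8, 60.1 and 67.9 FPKM in control and 57.5, 55.1 and 56.9 FPKM in Ras-induced libraries. The groups were separate, but the difference of -0.17 (95% interval -0.35 to 0.01) was not altered (limma adjusted p = 0.174). CEP19, needed for cilium formation, was low, at 1.954, 1.917 and 1.596 FPKM in control and 2.86, 2.87 and 2.27 FPKM in Ras-induced libraries. Its groups were separate too (0.37, adjusted p = 0.139), on a scale that understates the change of low genes. CEP290 (0.20), CEP41 (-0.18) and CEP112 (-0.03) had adjusted p of 0.256 to 0.864.

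The other CEP genes, with less settled roles, had a median log2 difference of -0.21, and of -0.3 and -0.31 after quantile normalization and upper-quartile scaling. None of the 5 was altered by limma, and 3 of them, CEP70, CEP85L and CEP95, had an unadjusted p under 0.05, beside 16.7% and 33.6% of all genes. CEP85L had the largest difference among genes that were not altered, at 2.23, 2.67 and 1.96 FPKM in control and 4.15, 2.95 and 3.95 FPKM in Ras-induced libraries. The groups were separate (0.51, SE 0.16, limma adjusted p = 0.0810). CEP70 had the opposite pattern (-0.31, adjusted p = 0.0555) and was the 1 of these 5 altered after quantile normalization (-0.41, adjusted p = 0.0334) or upper-quartile scaling (adjusted p = 0.0243), where 7.93% and 7.87% of all genes fell. CEP95 (-0.30, adjusted p = 0.133) was altered without the second Ras-induced library (adjusted p = 0.0487) and shares exon bases with DDX5 and SMURF2 on the other strand. CEP44 (-0.21, from -0.05 without the third to -0.35 without the first Ras-induced library) and CEP78 (0.09, and below 0 under both scalings) were not altered.

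Other genes of the same structure were listed by role, and 47 of the 49 listed were tested. CETN1 was listed at 0 in all libraries. With the deposited values 3 rose and 5 fell, beside 11.0% and 5.67% of all genes, and their median log2 difference was -0.04. Under both scalings 2 rose and 7 fell, beside 7.46% and 7.93% of all genes after quantile normalization and 6.58% and 7.87% after upper-quartile scaling. Leaving out single libraries left between 2 and 8 of them altered, with 2 left without the first Ras-induced or the second control library, 3 without the third Ras-induced or the first control library, 4 without the second Ras-induced library and 8 without the third control library.

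Gamma-tubulin ring complexes nucleate microtubules in the pericentriolar material. Of the 10 genes of the complex, TUBGCP2 rose, from 47.1, 48.6 and 51.6 FPKM to 59.8, 62.2 and 68.1 FPKM (0.36, limma adjusted p = 0.0305), and was not altered after quantile normalization (0.27, adjusted p = 0.0897) or upper-quartile scaling (0.112). It was altered without the third control library (0.0357) and not without any other (0.0546 to 0.0902). TUBG1, the main gamma-tubulin gene, was not altered (0.12, adjusted p = 0.393). So 1 of the 10 rose as deposited, beside 11.0% of all genes, and none of the 10 was altered after either scaling, where 7.46% and 6.58% of all genes rose. Without a trend TUBGCP2 also lost its call.

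Among 10 other centriole genes WDR62 fell, beside 5.67% of all genes. It encodes a spindle pole protein in which mutations cause microcephaly, and measured 29.0, 28.3 and 29.2 FPKM in control and 18.7, 21.1 and 17.8 FPKM in Ras-induced libraries. The groups were separate and the replicates close, with a log2 difference of -0.57 (SE 0.09, limma adjusted p = 0.00994) that was altered with each library left out (adjusted p 0.0171 to 0.0463). CENPJ, which adds microtubules to the growing centriole, was not altered (-0.09, adjusted p = 0.618).

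CNTRL, the gene of centriolin and also known as CEP110, fell from 26.4, 26.4 and 31.1 FPKM to 17.04, 20.1 and 18.2 FPKM (-0.57, SE 0.10, limma adjusted p = 0.0154). It was not altered without the first or the third Ras-induced or the second control library (0.0550 to 0.0658). Among 6 other linker and appendage genes, the distal appendage gene SCLT1 fell from 34.7, 32.8 and 32.4 FPKM to 23.3, 26.2 and 23.6 FPKM (-0.44, SE 0.08, adjusted p = 0.0163). This was 1 of the 6, beside 5.67% of all genes. CNTLN, named after its values were seen, also fell after quantile normalization (-0.44, limma adjusted p = 0.0300). So 2 and 1 of the 6 fell after quantile normalization and upper-quartile scaling, beside 7.93% and 7.87% of all genes. The SCLT1 call held without the second Ras-induced (0.0261) or the third control library (0.0323) and was lost without any other (0.0569 to 0.0658). NIN, the gene of the subdistal appendage protein ninein, was not altered (0.16, adjusted p = 0.343).

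Of 8 other satellite genes SSX2IP rose and CCDC14 fell, beside 11.0% and 5.67% of all genes. SSX2IP, needed for centrosome maturation and microtubule anchoring, went from 10.8, 11.8 and 10.3 FPKM to 20.0, 18.9 and 19.3 FPKM. Both groups were tight, and the log2 difference of 0.77 (SE 0.08, limma adjusted p = 0.00384) was altered with each library left out (0.0140 to 0.0275). CCDC14 went from 29.4, 31.6 and 33.7 FPKM to 24.1, 26.0 and 25.3 FPKM (-0.32, adjusted p = 0.0456), a call lost with any single library left out (0.0638 to 0.120), without a filter and without a trend. OFD1, a satellite and distal centriole protein, was not altered (0.12, adjusted p = 0.413).

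Of 9 kinases and regulators PLK2 rose and PLK1 fell, beside 11.0% and 5.67% of all genes. PLK2, a stress-induced relative of PLK4, went from 11.9, 13.8 and 16.9 FPKM to 30.8, 28.8 and 23.1 FPKM (0.92, SE 0.16, limma adjusted p = 0.0135). It was altered without the third Ras-induced (0.0346) or the third control library (0.0217) and not without any other (0.0526 to 0.0666). PLK1, which drives centrosome maturation in mitosis, went from 214.4, 222.7 and 204.4 FPKM to 172.2, 183.6 and 177.4 FPKM (-0.27, adjusted p = 0.0475) and, with single libraries left out, kept its call only without the third control library (0.0397, against 0.0650 to 0.129). It also lost the call with a pseudocount of 0.1 (0.0516), without a filter and without a trend. AURKA, the Aurora A kinase gene, was not altered as deposited (-0.14, adjusted p = 0.232) and fell after upper-quartile scaling (adjusted p = 0.0477). NEK2, a kinase that acts on the linker and is named after its values were seen, fell after quantile normalization (0.0379) and upper-quartile scaling (0.0297), so that 2 and 3 of the 9 fell under the scalings, beside 7.93% and 7.87% of all genes.

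**Figure D5:**
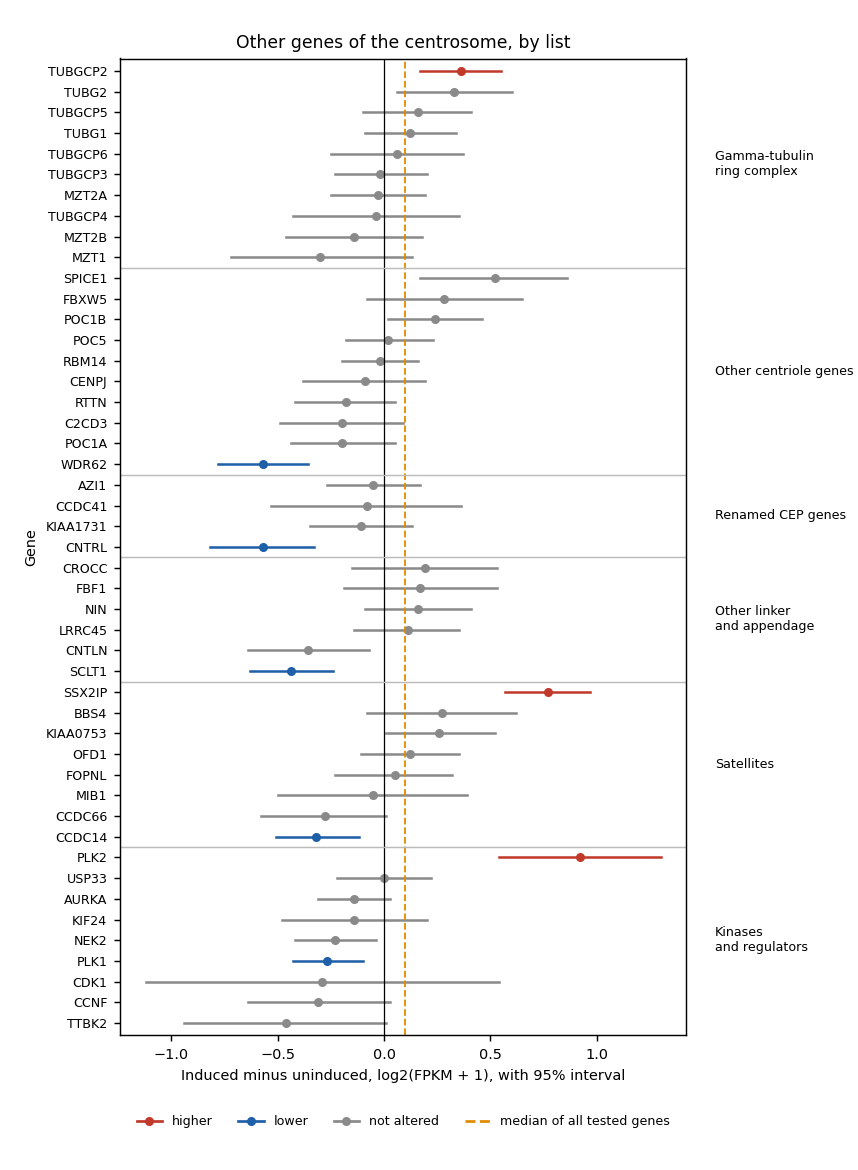
Log2 difference (point) with its 95% interval (line) for the 47 tested genes of the other centrosome lists, grouped by role; red genes rose, blue genes fell and grey genes were not altered, and the dashed line is the median of all tested genes. SSX2IP, PLK2 and TUBGCP2 lie to the right and WDR62, CNTRL, SCLT1, CCDC14 and PLK1 to the left.

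Many centrosome genes are known to be expressed periodically, and genes of the cell cycle are described here for comparison. Of 15 tested S phase genes 9 fell and none rose (median log2 difference -0.58), beside 5.67% and 11.0% of all genes. Under each scaling 11 fell, beside 7.93% of all genes after quantile normalization and 7.87% after upper-quartile scaling. The summed level of the S phase genes was 777 to 835 FPKM in control and 489 to 611 FPKM in Ras-induced libraries. Of 12 tested genes of G2 and mitosis 8 fell and none rose (median -0.32), again beside 5.67% and 11.0% of all genes. After quantile normalization and upper-quartile scaling 8 and 9 of them fell, beside 7.93% and 7.87%. Their sums were 2200 to 2310 FPKM in control and 1750 to 1930 FPKM in Ras-induced libraries. The S phase count was 5 to 9 with single libraries left out, at 5 without the first or the third Ras-induced or the second control library. The mitotic count was 6 without the third control library, 3 without the second Ras-induced library, 1 without the first Ras-induced library and 0 without any other. PLK1 is in both this list and the list of centrosomal kinases, as is AURKA. The collected cells of both groups had a mitotic index over 90%, and the level of these genes in the remaining cells was not measured. The part of the cell cycle genes in the lower STIL, CEP192, CNTROB and WDR62 levels was not tested.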

How the data were processed

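Poly(A) RNA of 6 libraries (3 control, 3 Ras-induced) was sequenced on a NextSeq500 from an unstranded TruSeq kit. The FPKM values were deposited by the authors, who trimmed reads with Trim Galore 0.3.0, aligned them to hg19 with Tophat2 and the splice junctions of Ensembl build 73, and ran Cufflinks. Column headers give a group and a number and no sample, so each library served as a replicate of its group. Left out were 18 columns without a name, 120 rows with more than 6 values, 1 row without numbers, and the authors' cuffdiff comparison, which holds their own fold changes and p-values.

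Differences were fitted with limma (version 3.58.1, run in R 4.3.3) on log2(FPKM + 1), keeping genes whose mean was 1 FPKM or more. The variance prior followed mean level (eBayes with trend), tests were two-sided, and p-values were adjusted by Benjamini and Hochberg's method over 13993 genes. Values of all 6 libraries are printed for altered genes, for the 3 largest differences in each direction among other members, and for 14 genes set by name, such as PLK4 and PCNT. The values of 1 member, which is counted in every total, are not reported here. The centrosome genes and all lists were chosen with earlier results of these data known. On simulated data for this comparison (13993 genes), 8 of 66 genes changed by 0.5 on the log2 scale were called, 50 of 67 changed by 1 and 63 of 67 changed by 2, with 4 false calls. Far fewer genes were changed there than the 2336 altered in the data, so the Benjamini-Hochberg threshold was stricter. Differences of the size described here may be missed, at a rate that was not measured. Coordinates are from GENCODE 44 lifted to GRCh37. Depth was estimated from steps between low values, relative to the first control library. An exact test of 3 against 3 libraries cannot reach a p below 0.1. Alternatives were a pseudocount of 0.1, a filter at 0.5 FPKM or none, quantile and upper-quartile scaling, no trend, a replicate block and each library left out. Python 3.11.15 was used for tables (pandas 2.3.3, numpy 2.4.6), rank correlations (scipy 1.17.1) and plots (matplotlib 3.10.9).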

Additional observations from a re-analysis of the deposited data

How the results depend on the processing

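The number of altered centrosome genes was 5 with the deposited values and ranged from 3 without a filter on low values to 9 after quantile normalization and 10 after upper-quartile scaling, and from 1 to 4 with single libraries left out. Those that fell numbered 1 without a filter, 7 and 8 after the scalings, and 0 to 2 with libraries left out, and those that rose 1 to 2. Altered genes overall numbered 1518 without a filter and 860 to 1872 with libraries left out, against 2336, and altered companion genes numbered 5 without a trend and 2 to 8 with libraries left out, against 8. The median of the centrosome genes was -0.17 after both scalings. Over 533 values of single genes under alternatives, 478 kept direction and call, 23 lost the call, 11 gained it and 21 changed sign, none of the latter in an altered gene. Under quantile normalization and upper-quartile scaling the sign changed for CEP120 (-0.07 and -0.07), CEP128 (-0.03 and -0.03), CEP78 (-0.00 and -0.01) and PLK4 (-0.04 and -0.04). With single libraries left out the difference ranged from -0.07 to 0.19 for CEP120, -0.14 to 0.04 for CETN3, -0.10 to 0.03 for SASS6, -0.11 to 0.04 for CEP112, -0.09 to 0.04 for CEP164, -0.13 to 0.02 for CEP57 and -0.15 to 0.07 for CEP250. Column numbers were not taken to pair libraries. Same-numbered libraries had correlations of -0.003, 0.043 and 0.048 in their deviations from the group means, and differently numbered ones -0.068 to 0.031. Values so near 0 do not decide whether libraries were paired. With the number as a replicate block 4 centrosome genes were altered (2 rose, 2 fell), 2310 genes overall and 6 companion genes, and CNTROB (adjusted p = 0.0564), PLK1 (0.0643) and CCDC14 (0.0535) lost their calls. The cause of these shifts was not tested. Without read counts, the precision of low genes such as SASS6 and CEP19 is known only from the spread between 3 libraries.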

Other observations

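Several CEP genes stand in the table under older symbols, which the selection by symbol passed over. By identifier these were KIAA1377 (CEP126), KIAA1731 (CEP295), FGFR1OP (CEP43), FOPNL (CEP20), CCDC41 (CEP83), KIAA1009 (CEP162) and AZI1 (CEP131), with mean levels of 1.14 to 75.3 FPKM. None of the 7 was altered, beside 16.7% of all genes, with log2 differences of -0.19 to 0.05 (limma adjusted p 0.481 to 0.890). CEP55, which the selection left out and which acts at the midbody in abscission rather than in centrioles, was at 173.6, 161.5 and 146.7 FPKM in control and 99.3, 106.0 and 104.4 FPKM in Ras-induced libraries. It fell by 0.63 on the log2 scale (SE 0.08, adjusted p = 0.00661, and 0.0113 to 0.0382 with single libraries left out).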
